A study of Mus musculus with 14 samples.

Results

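The tumor necrosis factor (TNF) superfamily was represented by 29 genes, 10 ligands and 19 receptors, of the 19057 genes named on the array. Members were the genes whose symbol begins with Tnfsf (ligands) or Tnfrsf (receptors), apart from a ligand and a receptor of the same naming that are not reported here, and the probe with the highest mean over all arrays stood for each gene. Members that carry other kinds of names, such as Tnf, Ltb and Cd40, were counted separately as related genes. The arrays measured GFP+CD11b+ myeloid cells from breast cancer brain metastases (BrM), spleen and bone marrow of C57Bl/6J mice aged 14 weeks.

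TNF superfamily ligands are mostly membrane proteins that act as trimers, can be shed as soluble factors, and bind cysteine-rich receptors on a neighboring cell. The receptors recruit TRAF adaptors and activate NF-kB, and those with a death domain can also start caspase activation. In myeloid cells, RANK (Tnfrsf11a) is known for osteoclast formation and the TNF receptors for inflammatory activation, whereas myeloid ligands such as BAFF (Tnfsf13b) and APRIL sustain B lymphocytes and plasma cells, which carry the receptors Tnfrsf13c, Tnfrsf13b and Tnfrsf17.

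There were 6 conditions. PyMT BrM (n = 4 arrays), PyMT spleen (n = 3) and PyMT bone marrow (n = 1) came from mice in whose brains PyMT murine breast cancer cells had grown for about 2 weeks, and EO771 BrM (n = 2) from mice with EO771 murine breast cancer cells. Naïve spleen (n = 2) and naïve bone marrow (n = 2) came from tumor-free mice and took the place of the tissues of EO771-bearing mice, from which no viable cells could be obtained. The chimeric mice had been lethally irradiated and given hematopoietic stem cells of mice that express GFP from the ubiquitin C promoter. The sort for GFP was thus meant to take progeny of the graft rather than host microglia, but its purity is not given here. The cancer cells themselves were untagged. Cell line, set of mice and handling of the arrays cannot be told apart for PyMT against EO771 and naïve samples, and the comparisons below share arrays with each other. The title codes tie 3 PyMT BrM arrays to the PyMT spleens of the same animals and the PyMT bone marrow array to 1 of these animals. Both naïve bone marrow arrays and naïve spleen 1 carry 1 animal number, so that naïve bone marrow may be 1 animal, and 1 EO771 BrM title carries 2 numbers. These shared animals enter the pooled comparison and those of naïve samples without a block, and the p-values measure the spread between these arrays. In bulk RNA of sorted cells, fewer cells of a type and less RNA per cell cannot be told apart.

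Values are log2 signals with a nearly identical distribution on every array, as after quantile normalization, with a median over all probes of 4.06 and a highest value of 14.6. Itgam, which encodes CD11b, lay between 5.74 and 8.87, above that median on every array. The array labelled PyMT spleen 2 stood apart from its group. Over all probes it correlated with the 3 bone marrow arrays at r = 0.9373 to 0.9495 and with the other 4 spleens at 0.8986 to 0.9074, whereas those 4 spleens correlated among themselves at 0.9218 to 0.9622. Results that rest on it are therefore given with and without it. Neutrophil markers were lower in BrM (11 of 12 called, mean level 6.47 to 9.33 on BrM arrays and 11.54 to 12.80 on the others), macrophage markers were higher (7 of 11, 11.37 to 11.90 and 8.31 to 10.14), and so were genes of dissociation stress (10 of 14, 8.86 to 10.61 and 7.13 to 7.91). The part of these shifts in the differences of the family was not tested.

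The BrM and the other arrays differed most in 2 receptors, Tnfrsf12a, which was higher in BrM, and Tnfrsf13c, which was lower, and the largest fall among the ligands was that of Tnfsf14. The promoters of these genes and of Tnfrsf18, the other receptor that fell, are shown as the 250 bases before the annotated start (GRCm38.p6, RefSeq). The study set out to find promoters active in BrM-infiltrating myeloid cells, and of these genes only Tnfrsf12a was higher in BrM. Capitals mark a match, on either strand, to GAGGAA, a core bound by the myeloid factor PU.1, or to TGANTCA, the site of AP-1 factors.
Tnfrsf12a, chr17:23677450-23677699, minus strand: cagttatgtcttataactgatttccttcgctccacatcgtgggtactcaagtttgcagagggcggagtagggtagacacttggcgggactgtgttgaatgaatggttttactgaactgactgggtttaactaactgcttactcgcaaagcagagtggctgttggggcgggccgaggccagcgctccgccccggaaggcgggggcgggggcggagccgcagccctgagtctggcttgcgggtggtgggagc
Tnfrsf13c, chr15:82224381-82224630, minus strand: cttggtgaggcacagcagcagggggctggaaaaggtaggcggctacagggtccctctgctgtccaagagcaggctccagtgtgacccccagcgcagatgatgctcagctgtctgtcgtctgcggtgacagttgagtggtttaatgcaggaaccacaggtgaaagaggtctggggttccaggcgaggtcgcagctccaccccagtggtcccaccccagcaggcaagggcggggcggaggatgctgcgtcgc
Tnfrsf18, chr4:156026072-156026321, plus strand: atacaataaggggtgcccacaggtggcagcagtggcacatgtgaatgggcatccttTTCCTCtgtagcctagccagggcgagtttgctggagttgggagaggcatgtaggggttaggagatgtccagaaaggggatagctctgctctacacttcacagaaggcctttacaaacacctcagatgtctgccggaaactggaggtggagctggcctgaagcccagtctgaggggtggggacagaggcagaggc
Tnfsf14, chr17:57194182-57194431, minus strand: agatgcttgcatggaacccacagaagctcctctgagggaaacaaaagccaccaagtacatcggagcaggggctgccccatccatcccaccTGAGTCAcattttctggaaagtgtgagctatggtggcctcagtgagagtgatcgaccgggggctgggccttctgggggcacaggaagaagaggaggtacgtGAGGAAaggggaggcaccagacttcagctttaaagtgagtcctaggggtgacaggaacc
The Tnfsf14 window held an AP-1 match 160 bases and a PU.1 match 59 bases before the start, and the Tnfrsf18 window held a PU.1 match on the opposite strand, 194 bases before the start. Neither motif, nor the kappaB motif to which NF-kB binds, was found in these letters for Tnfrsf12a or Tnfrsf13c, whose windows were 58.8% and 63.2% G or C. Among the 27 promoters listed for 23 members, 9 held the PU.1 core, 4 the AP-1 site and 3 the kappaB motif, against 23.3%, 6.75% and 7.25% of all 32851 promoters of this length. The 4 genes lie at chr17:23675445-23677449 (Tnfrsf12a), chr15:82221742-82224380 (Tnfrsf13c), chr4:156026322-156028894 (Tnfrsf18) and chr17:57189474-57194181 (Tnfsf14). Tnfsf14 has a family neighbor in Tnfsf9 (chr17:57105287-57107758), and Tnfrsf18 begins 9709 bases past the end of Tnfrsf4, 1 of 7 family receptors on chromosome 4.

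In the pooled comparison of 6 BrM with 8 spleen and bone marrow arrays, 3 of 10 ligands (2 higher, 1 lower) and 4 of 19 receptors (2 higher, 2 lower) passed an adjusted p of 0.01 in limma, with adjustment over all 45281 probes. Of all probes, 6.92% were called, 3.80% higher and 3.12% lower. This share, like the later ones, covers every probe, also those without a symbol and the dimmer probes of a gene. Each member stands by its brightest probe, so the shares of members and of all probes are not like for like. Receptors higher in BrM were Tnfrsf12a and Tnfrsf11a, and receptors lower in BrM were Tnfrsf13c and Tnfrsf18. Among the ligands Tnfsf9 and Tnfsfm13 were higher and Tnfsf14 was lower. The median log2 difference was 0.355 for ligands, 0.149 for receptors and -0.00638 for all probes. All 6 BrM arrays lay above or below all others for 4 members (13.8%), a separation seen for 6.07% of all probes. Leaving out PyMT spleen 2 gave 4 ligands (with Tnfsf8) and 4 receptors, beside 6.38% of all probes. Set against the spleen arrays alone, BrM differed in 0 ligands and 2 receptors (Tnfrsf12a and Tnfrsf13c; 4.00% of all probes called), and in 0 and 4 when PyMT spleen 2 was left out as well (5.04%). Set against the bone marrow arrays alone, it differed in 3 ligands and 3 receptors (7.62%).

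**Figure D1:**
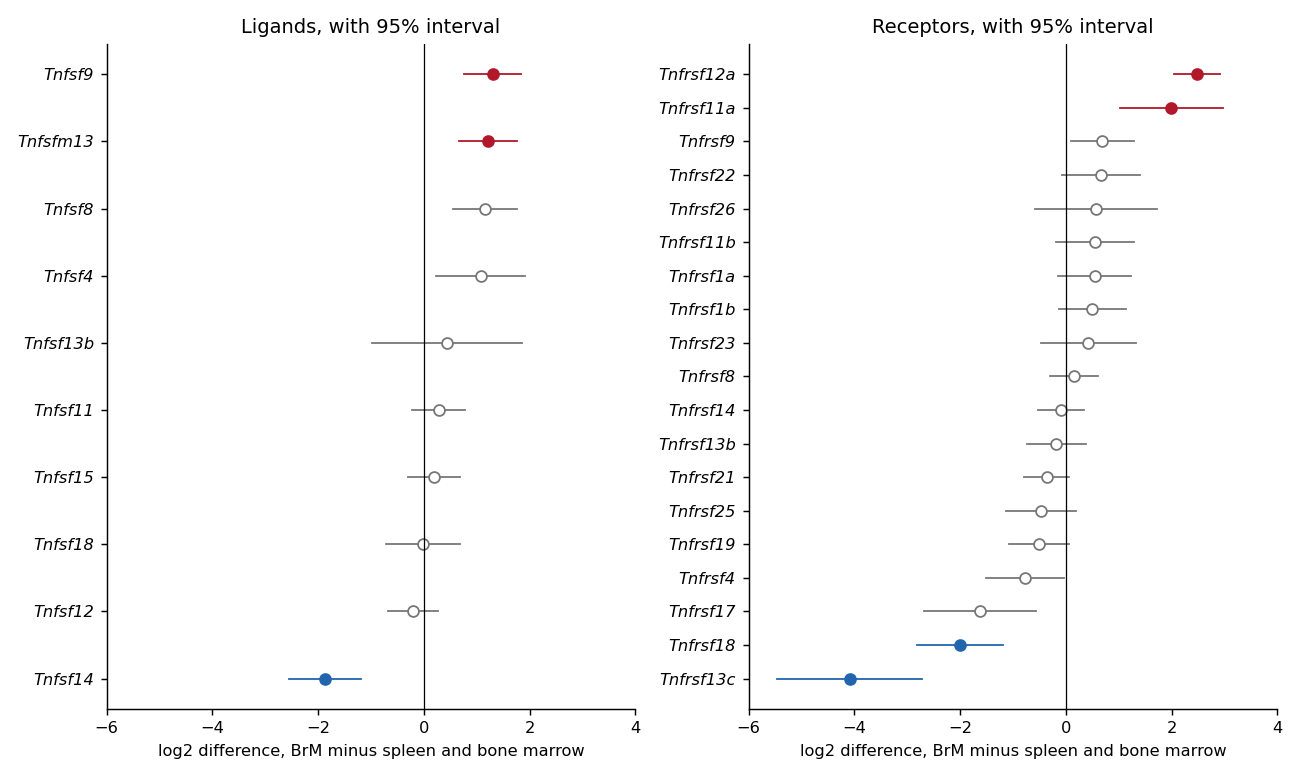
Log2 difference between 6 BrM arrays and 8 spleen and bone marrow arrays (x axis) for the 10 ligands and 19 receptors (y axis), with 95% intervals from limma; filled red points were called higher and filled blue points lower. Tnfrsf12a at 2.48 and Tnfrsf13c at -4.09 are the most distant from 0.

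Tnfrsf12a encodes Fn14, the receptor for TWEAK (Tnfsf12), known from injured and remodeling tissue. Its log2 signal was 7.97, 8.27, 7.56 and 7.90 in PyMT BrM and 8.14 and 8.24 in EO771 BrM. Spleens gave 5.92, 5.17 and 6.28 (PyMT) and 5.54 and 5.62 (naïve), and bone marrow gave 5.25 (PyMT) and 5.36 and 5.14 (naïve). Every BrM array exceeded every other array, and the lowest BrM value, 7.56, was well clear of the highest spleen, 6.28. BrM exceeded the other arrays by 2.48 (SE 0.20, 95% interval 2.04 to 2.91, 5.57-fold, adjusted p = 7.25e-07 from limma). The mean levels of 4 lists were likewise higher on every BrM array than on any other. These were dissociation stress and macrophage genes, with the ranges given above, microglia markers (7.41 to 8.50 on BrM arrays, at most 4.97 on others) and epithelial markers (4.10 to 5.67, at most 4.07). Of 8 epithelial markers 2 were called higher, Krt8 (3.10) and Cdh1 (1.46), whereas Epcam (-0.09) and Krt19 (-0.19) did not rise. The part of these 4 lists in the Tnfrsf12a difference was not tested. The TWEAK probe itself was dim, with condition means of 2.89 to 3.62, and its difference was -0.21 (adjusted p = 0.661).

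Tnfrsf11a, or RANK, gave 7.89, 7.85, 7.98 and 7.60 in PyMT BrM and 8.95 and 8.60 in EO771 BrM. In spleens it gave 7.77, 4.24 and 6.25 (PyMT) and 6.99 and 7.28 (naïve), and in bone marrow 5.84 (PyMT) and 5.33 and 5.50 (naïve). BrM and spleen overlapped through 1 PyMT spleen array, while bone marrow and PyMT spleen 2 were lowest. Pooled over tissues, BrM exceeded the others by 2.00 (SE 0.46, 3.99-fold, adjusted p = 0.0076 from limma). Without PyMT spleen 2 it was 1.72 (adjusted p = 0.00837), against bone marrow alone 2.59 (adjusted p = 2.91e-04) and against spleen alone 1.64 (adjusted p = 0.0748). Removing 1 array at a time ended this call for 10 of the 14 arrays, with adjusted p as high as 0.021, and averaging the naïve bone marrow arrays ended it too (1.89, adjusted p = 0.0162). RANK ligand (Tnfsf11) had condition means of 3.78 to 4.40, and its soluble decoy osteoprotegerin (Tnfrsf11b) of 2.47 to 3.89. Neither was called in any comparison.

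Tnfrsf13c is the BAFF receptor, a survival receptor of mature B cells. BrM arrays were low, at 3.43, 3.79, 4.19 and 3.15 (PyMT) and 4.09 and 4.05 (EO771). Bone marrow arrays gave 6.25 (PyMT) and 6.23 and 6.18 (naïve). Spleen arrays gave 9.35, 6.29 and 9.26 (PyMT) and 9.92 and 9.46 (naïve), so that PyMT spleen 2 lay at the level of bone marrow and the other 4 spleens far above it. No BrM array reached any other array. Its pooled difference was -4.09 (SE 0.65, 95% interval -5.45 to -2.72, adjusted p = 4.31e-04 from limma). The BrM levels lay around the median of all probes, where signal was not shown to be above background, so this and the other differences of Tnfrsf13c are sizes between signals that may understate the fall. It was -5.07 against spleen alone and -2.44 against bone marrow alone, and both passed the test. B cell markers moved alongside it. Their mean level over 8 genes was 4.10 to 4.84 on BrM arrays, 5.41 to 6.35 on bone marrow arrays, 5.73 on PyMT spleen 2 and up to 8.25 on the other spleens. Of the 8, 3 were called lower, Cd79b (-3.84), Blk (-5.44) and Vpreb3 (-4.08). The part of B cells in the Tnfrsf13c difference was not tested.

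**Figure D2:**
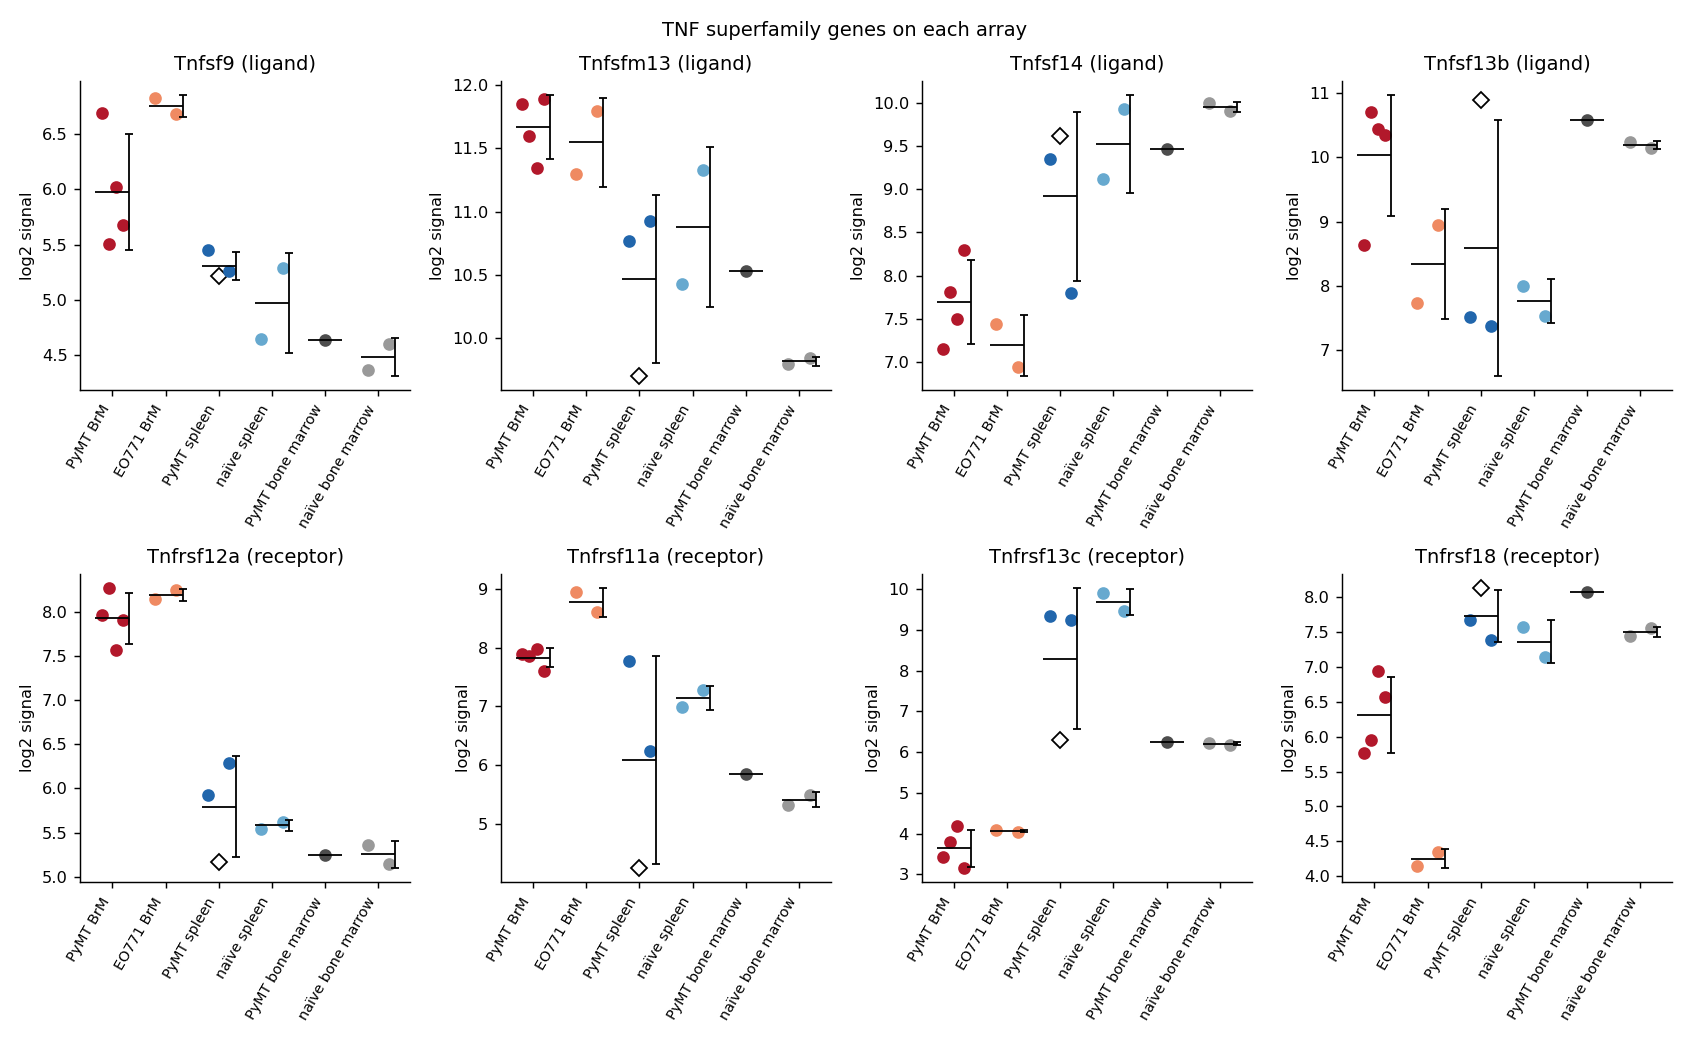
Log2 signal (y axis) of 8 members on each array, by condition (x axis); points are arrays, lines are means, bars are SD, and the open diamond is the array labelled PyMT spleen 2. For Tnfrsf12a the 6 BrM arrays, 7.56 to 8.27, lie above all others, and for Tnfrsf13c, 3.15 to 4.19, below all others.

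The other receptors of the BAFF and APRIL group were not called in the pooled comparison. Tnfrsf17, or BCMA, a receptor of plasma cells, was 3.04, 3.73, 2.29 and 2.84 in PyMT BrM and 3.19 and 1.27 in EO771 BrM. In spleens it was 6.07, 3.04 and 5.57 (PyMT) and 4.51 and 5.26 (naïve), and in bone marrow 3.34 to 3.58. Apart from PyMT spleen 2, the spleens lay above all BrM arrays, and the pooled difference was -1.63 (SE 0.50, adjusted p = 0.0421 from limma). Without that array the difference between PyMT BrM and PyMT spleen was -2.84 (adjusted p = 0.00468). On every BrM array Tnfrsf17 lay below the median of all probes, 4.06, where signal was not shown to be above background. Tnfrsf13b, or TACI, was bright in all conditions, with means of 8.47 in PyMT bone marrow to 9.75 in naïve spleen and a pooled difference of -0.18 (adjusted p = 0.778). Plasma cell markers were called in neither direction (0 of 5).

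BAFF (Tnfsf13b), the ligand of these receptors, split the arrays in another way. It was 8.64, 10.70, 10.43 and 10.35 in PyMT BrM and 7.73 and 8.95 in EO771 BrM. It was 7.52, 10.89 and 7.37 in PyMT spleen, 8.01 and 7.53 in naïve spleen, 10.58 in PyMT bone marrow and 10.24 and 10.15 in naïve bone marrow. Bone marrow, PyMT spleen 2 and 3 PyMT BrM arrays were high, and the other 4 spleens were at most 8.01. The pooled difference was 0.43 (SE 0.67, adjusted p = 0.784 from limma). Without PyMT spleen 2, PyMT BrM exceeded PyMT spleen by 2.59 (SE 0.53, adjusted p = 0.00877), a call that is absent with it. Naïve spleen against naïve bone marrow was -2.43 (SE 1.00, adjusted p = 0.276).

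Tnfrsf18, or GITR, a costimulatory receptor best known from regulatory T cells, was the other receptor that fell. It gave 5.77, 5.96, 6.94 and 6.57 in PyMT BrM but 4.15 and 4.35 in EO771 BrM. The spleens gave 7.67, 8.13 and 7.39 (PyMT) and 7.58 and 7.15 (naïve), and the bone marrow 8.07 (PyMT) and 7.45 and 7.55 (naïve). All BrM arrays lay below all others, and both EO771 BrM arrays below all PyMT BrM arrays. The EO771 BrM arrays lay just above the median of all probes, 4.06, where signal was not shown to be above background. The pooled difference was -2.00 (SE 0.38, 95% interval -2.81 to -1.19, 4.00-fold lower, adjusted p = 0.0021 from limma), and a second Tnfrsf18 probe gave -2.03. Against spleen alone the difference was -1.96 (adjusted p = 0.0192), and against bone marrow alone it was -2.07 (adjusted p = 0.0415), neither of which passed. Its ligand Tnfsf18 was dim (condition means 2.77 to 3.47, pooled difference -0.02). T cell markers were lower for 2 of 10 genes, with mean levels of 4.02 to 5.03 on BrM arrays and 4.43 to 5.90 on the others, and the part of T cells in the Tnfrsf18 difference was not tested. Tnfrsf4, or OX40, the neighbor of Tnfrsf18 on chromosome 4 and likewise a T cell costimulator, had condition means of 6.14 (EO771 BrM) to 7.61 (naïve spleen) and a pooled difference of -0.77 (adjusted p = 0.186).

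Tnfsf9 encodes the ligand of the costimulatory receptor Tnfrsf9 and is made by activated antigen-presenting cells. It was 6.69, 5.51, 6.02 and 5.67 in PyMT BrM and 6.82 and 6.68 in EO771 BrM. Spleens gave 5.45, 5.22 and 5.26 (PyMT) and 4.65 and 5.29 (naïve), and bone marrow gave 4.64 (PyMT) and 4.37 and 4.61 (naïve). The 6 BrM arrays lay above all others, but narrowly for PyMT, where the lowest BrM array was 5.51 and the highest spleen 5.45. BrM exceeded the others by 1.30 (SE 0.26, 2.46-fold, adjusted p = 0.00269 from limma). Against spleen alone it was 1.06 (adjusted p = 0.0344). The receptor Tnfrsf9 was not called (0.69, adjusted p = 0.142), and its other probes gave 1.20 (adjusted p = 0.0104) and -0.08.

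Tnfsfm13 is the symbol of a readthrough transcript (chr11:69682577-69696098) that spans Tnfsf12 and the APRIL gene, and its probe cannot be assigned to 1 of these transcripts here. It was bright everywhere, at 11.85, 11.59, 11.35 and 11.88 in PyMT BrM and 11.30 and 11.80 in EO771 BrM. It was 10.76, 9.71 and 10.93 in PyMT spleen, 10.43 and 11.32 in naïve spleen, 10.53 in PyMT bone marrow and 9.80 and 9.84 in naïve bone marrow. BrM and the others overlapped through 1 naïve spleen. Its pooled difference was 1.21 (SE 0.26, 2.32-fold, adjusted p = 0.00417 from limma), lost against spleen alone (1.00, adjusted p = 0.0387) and without any 1 of PyMT BrM 1, PyMT BrM 4 and EO771 BrM 2, up to an adjusted p of 0.0125. A much dimmer probe of the same symbol gave 1.05 (adjusted p = 0.141).

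Tnfsf14, or LIGHT, a ligand of the receptors HVEM (Tnfrsf14) and lymphotoxin beta receptor, was the ligand that fell. It was 7.15, 7.82, 7.50 and 8.30 in PyMT BrM and 7.44 and 6.94 in EO771 BrM. It was 9.35, 9.61 and 7.79 in PyMT spleen, 9.12 and 9.93 in naïve spleen, 9.46 in PyMT bone marrow and 9.99 and 9.91 in naïve bone marrow. The groups overlapped through PyMT spleen 3 alone, which at 7.79 lay below 2 PyMT BrM arrays. The pooled difference was -1.87 (SE 0.32, 3.66-fold lower, adjusted p = 7.92e-04 from limma). Of its other probes, the second gave -1.86 and the dimmest -0.80, of which the former was called. Against spleen alone the difference was -1.63 (adjusted p = 0.0123), which did not pass, and PyMT BrM against PyMT spleen gave -1.23 (adjusted p = 0.088). Without PyMT spleen 3 the latter was -1.79 (adjusted p = 0.00786). That array is singled out for its own Tnfsf14 value, which overlaps BrM, so a larger fall without it was fixed beforehand and is no support. The mean level of neutrophil markers was lower on every BrM array than on any other array, and their part in the Tnfsf14 difference was not tested. Tnfrsf14 had condition means of 3.68 to 4.41, near the median of all probes.

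**Figure D3:**
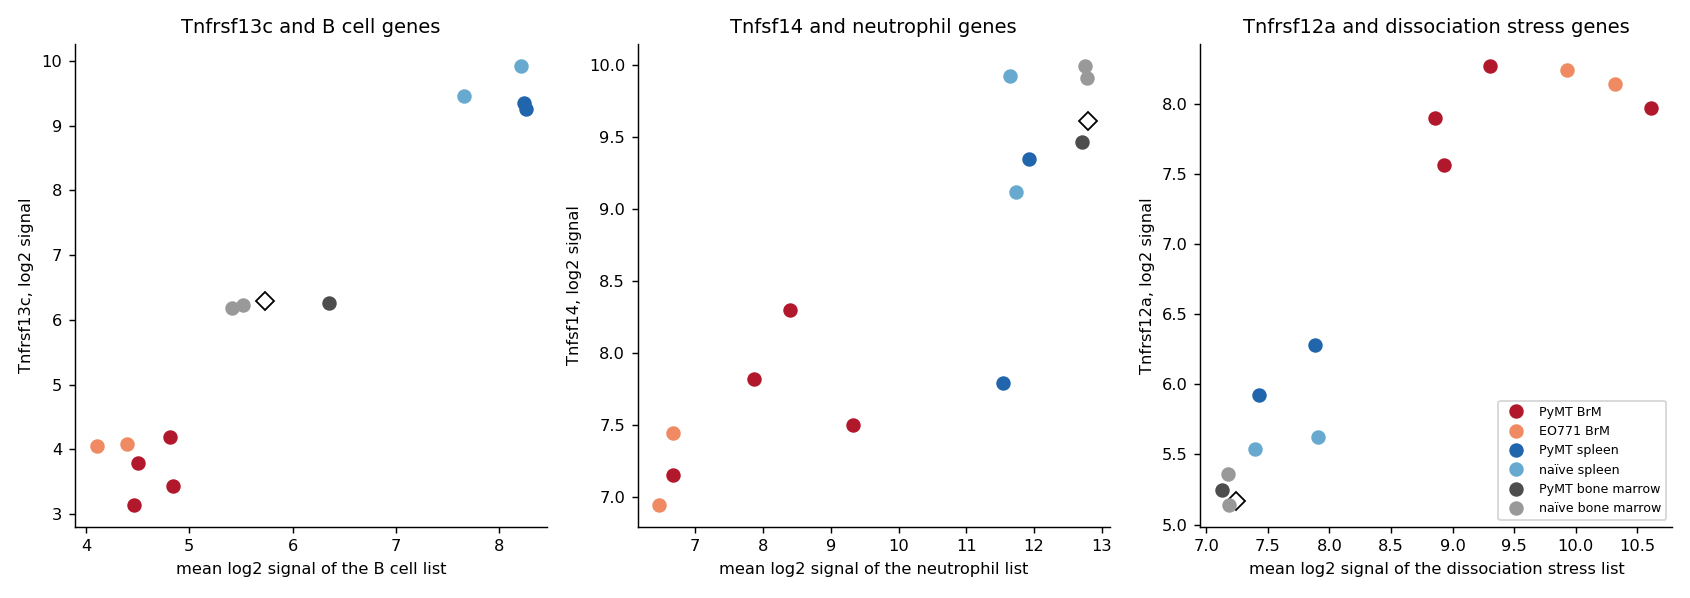
Log2 signal of Tnfrsf13c, Tnfsf14 and Tnfrsf12a (y axes) against the mean log2 signal of the B cell, neutrophil and dissociation stress lists (x axes), 1 point per array, colored by condition. BrM arrays lie at low list levels for B cells (4.10 to 4.84) and neutrophils (6.47 to 9.33) and at high levels for dissociation stress (8.86 to 10.61).

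Ligands were set beside a receptor they are known to bind in 9 pairs. In 6 pairs 1 partner was called in the pooled comparison, in 3 pairs neither partner was, and in 0 pairs both were. There, 7 of 29 members (24.1%) and 6.92% of all probes were called, and the pair counts were not tested against these shares. The called partner was the receptor for Tnfsf11 and Tnfrsf11a, Tnfsf12 and Tnfrsf12a, Tnfsf13b and Tnfrsf13c, and Tnfsf18 and Tnfrsf18. It was the ligand for Tnfsf9 and Tnfrsf9 and for Tnfsf14 and Tnfrsf14. The uncalled partners Tnfsf12 and Tnfsf18 lay below the median of all probes in every condition, where signal is near the background. Tnfsfm13 was in no pair, and Tnfsf13b was set beside Tnfrsf13c only.

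Within the PyMT model, PyMT BrM against PyMT spleen called 0 ligands and 2 receptors, where 4.73% of all probes were called. Tnfrsf12a was higher in BrM by 2.13 (SE 0.27, adjusted p = 5.00e-04 from limma) and Tnfrsf13c lower, at -4.66 (SE 0.60, adjusted p = 5.49e-04). Tnfrsf18, at -1.42 (SE 0.30), just missed the threshold (adjusted p = 0.0101), and Tnfsfm13 gave 1.20 (adjusted p = 0.0338). Mouse codes tie 3 BrM arrays to 3 spleens of the same animals. With the animal as a random block both calls held and Tnfrsf18 was called as well (adjusted p = 0.00967 from limma). The correlation fitted within animals was 0.0247, so this fit is close to the one without a block and is little check on the pairing. A fixed block over these 3 animals gave 2.12 for Tnfrsf12a (adjusted p = 0.0617) and -4.59 for Tnfrsf13c (adjusted p = 0.0279), and neither was called. Without PyMT spleen 2, 1 ligand (Tnfsf13b) and 3 receptors (with Tnfrsf17) were called, beside 6.86% of all probes.

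In the EO771 set, EO771 BrM against naïve spleen called 0 ligands and 3 receptors, beside 2.14% of all probes. Tnfrsf12a was higher by 2.61 (SE 0.35, adjusted p = 0.00137 from limma), Tnfrsf13c lower, at -5.62 with EO771 BrM at the median of all probes (SE 0.78, adjusted p = 0.00161), and Tnfrsf18 lower, at -3.11 (SE 0.39, adjusted p = 9.01e-04). For Tnfrsf18 too, EO771 BrM lay near that median. Tnfsf9 (1.78, adjusted p = 0.0166) and Tnfrsf1b (1.04, adjusted p = 0.0317) did not pass. With 2 arrays a side, the calls of Tnfrsf12a and Tnfrsf13c were lost without any 1 of the 4 arrays, up to adjusted p of 0.0174 and 0.0199, and that of Tnfrsf18 without EO771 BrM 1 or naïve spleen 1, up to 0.0153. All 3 were also called without PyMT spleen 2, which enters this comparison only through the shared estimate of the spread, beside 4.43% of all probes.

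EO771 BrM against naïve bone marrow gave 3 ligands and 3 receptors, beside 4.23% of all probes. With the naïve bone marrow arrays averaged, since they may be 1 animal, 0 ligands and 2 receptors (Tnfrsf12a and Tnfrsf18) were called, and Tnfsf8 (adjusted p = 0.0244), Tnfsf9 (0.0272), Tnfsf14 (0.0642) and Tnfrsf1b (0.0295) were not. Higher in BrM were Tnfrsf12a (2.94, SE 0.35, adjusted p = 4.35e-04 from limma), Tnfrsf1b (1.51, SE 0.25, adjusted p = 0.00245), Tnfsf9 (2.27, SE 0.37, adjusted p = 0.00262) and Tnfsf8 (2.32, SE 0.38, adjusted p = 0.00258). Lower were Tnfrsf18 (-3.25, SE 0.39, adjusted p = 4.43e-04 from limma) and Tnfsf14 (-2.76, SE 0.55, adjusted p = 0.00841). For Tnfrsf18, EO771 BrM again lay near the median of all probes. The calls of Tnfrsf12a and Tnfrsf18 held without each of the 14 arrays, whereas that of Tnfsf14 was lost in 11 of 14, with adjusted p as high as 0.0757, and those of Tnfrsf1b and Tnfsf9 were lost without any 1 of the 4 arrays compared, up to 0.0295 and 0.0319. The call of Tnfsf8 was lost without EO771 BrM 2 or either naïve bone marrow array, up to 0.0362. Without PyMT spleen 2, Tnfrsf11a (3.36, adjusted p = 3.51e-04 from limma), Tnfrsf13c (-2.14, adjusted p = 0.0014) and Tnfsfm13 (1.73, adjusted p = 0.00491) were called too, making 4 ligands and 5 receptors, beside 7.70% of all probes. PyMT spleen 2 is not among the arrays compared, so these sizes did not change and only the shared estimate of the spread did.

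Tnfsf8, the CD30 ligand, was 4.13, 4.74, 4.80 and 4.12 in PyMT BrM and 4.52 and 5.25 in EO771 BrM. It was 3.58, 4.33 and 3.81 in PyMT spleen, 3.22 and 3.64 in naïve spleen, 3.83 in PyMT bone marrow and 2.34 and 2.79 in naïve bone marrow. BrM levels lay around the median of all probes, and naïve bone marrow lay near the 5th percentile of signal, 2.31, so that its difference of 2.32 rests on signal at the dim end. BrM and the others overlapped through PyMT spleen 2. Its pooled difference of 1.15 (SE 0.29) had an adjusted p of 0.0134 with that array and was 1.28 (adjusted p = 0.00591 from limma) without it. The receptor CD30 (Tnfrsf8) was dim in all conditions, with means of 3.34 to 4.01.

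PyMT BrM and EO771 BrM differed in 0 ligands and 2 receptors, beside 1.59% of all probes. Tnfrsf18, with the values given above, was higher in PyMT BrM by 2.05 (SE 0.34, 95% interval 1.31 to 2.79, adjusted p = 0.00611 from limma). Its EO771 BrM values lay near the median of all probes, so this size rests partly on signal not shown to be above background. Tnfrsf1b, the inducible TNF receptor of immune cells, was lower in PyMT BrM. It gave 8.24, 8.18, 7.83 and 8.16 in PyMT BrM and 9.59 and 9.68 in EO771 BrM, a difference of -1.53 (SE 0.21, 95% interval -2.00 to -1.07, adjusted p = 0.00265 from limma). Spleens gave 7.74, 7.89 and 8.08 (PyMT) and 8.56 and 8.64 (naïve), and bone marrow 7.72 (PyMT) and 8.12 and 8.13 (naïve). In the pooled comparison this probe gave 0.50 (adjusted p = 0.356), while a dimmer Tnfrsf1b probe gave 1.33 (adjusted p = 0.00525, called) and a further one 1.10 (adjusted p = 0.014). With all Tnfrsf1b probes averaged, PyMT BrM against EO771 BrM gave -0.89 (adjusted p = 0.0499), which was not called. By the brightest probe of Tnfrsf1b, the PyMT arrays of each tissue thus lay below the EO771 or naïve arrays of that tissue. Tnfrsf26, a receptor of less settled function, showed the same layout at a dimmer level, with 4.15, 4.61, 3.44 and 4.95 in PyMT BrM against 7.16 and 5.64 in EO771 BrM (difference -2.11, SE 0.45, adjusted p = 0.0191). In spleens Tnfrsf26 was 3.79, 3.43 and 3.21 (PyMT) and 5.04 and 4.69 (naïve), and in bone marrow 3.78 (PyMT) and 5.72 and 5.76 (naïve). Tnfrsf1b, Tnfrsf26 and the dim Tnfsf15, for which the PyMT arrays were higher, were the 3 members of 29 with PyMT arrays entirely on 1 side in each of the 3 tissues, a layout noticed after the values were seen. It held for 9.63% of all probes, so the share of members is near that of the array as a whole, and Ptprc (the leukocyte antigen CD45) was likewise 4.12 to 6.25 on the 8 PyMT arrays and 6.87 to 7.54 on the other 6. The Tnfrsf18 call was lost in 9 of 14 arrays left out in turn (adjusted p up to 0.0864) and the Tnfrsf1b call without either EO771 BrM array (up to 0.0438). Both calls were lost when only these 6 arrays entered the fit. Both held without PyMT spleen 2, which enters only the shared estimate of the spread, beside 3.60% of all probes.

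**Figure D4:**
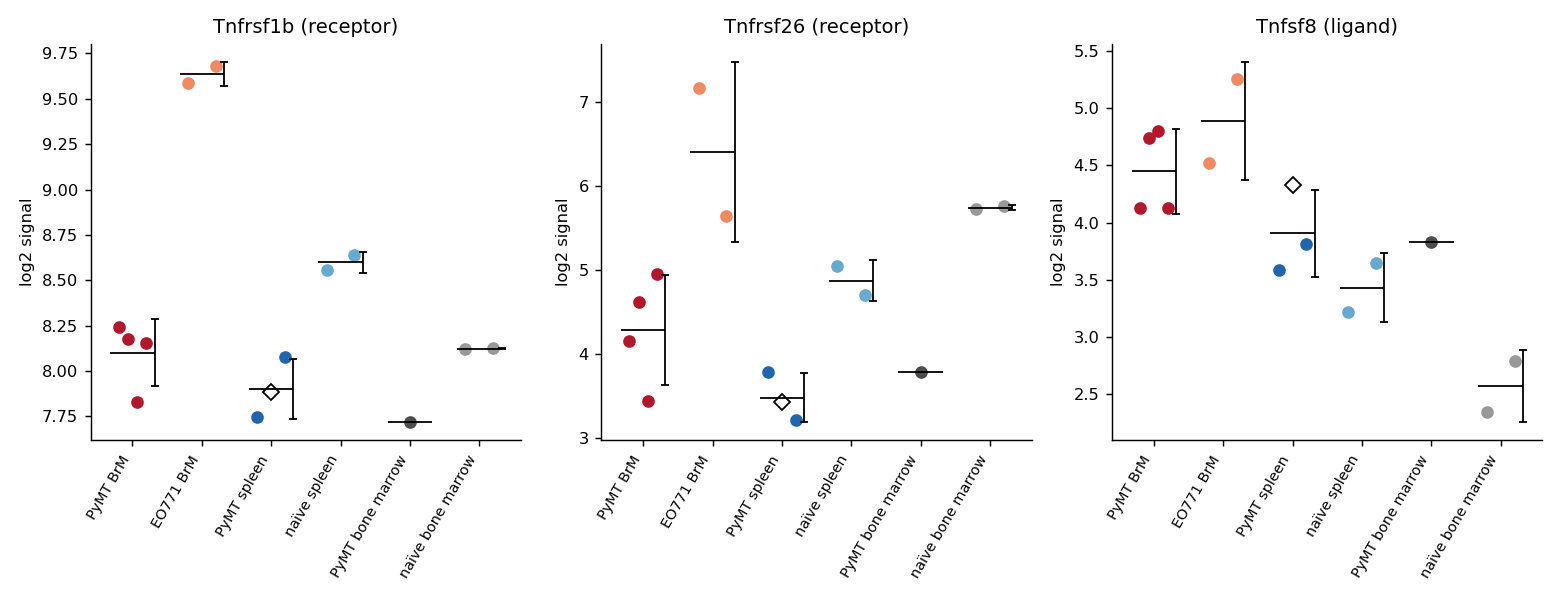
Log2 signal (y axis) of Tnfrsf1b, Tnfrsf26 and Tnfsf8 on each array by condition (x axis), with means and SD. For Tnfrsf1b, EO771 BrM at 9.59 and 9.68 lie above the PyMT BrM arrays, 7.83 to 8.24.

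In 3 comparisons 0 members were called. Naïve spleen against naïve bone marrow called 0% of all probes, and at an unadjusted p under 0.05 it had 4 ligands and 3 receptors (24.1% of members) and 6794 probes (15.0%). The largest difference among the receptors there was that of Tnfrsf13c, 3.49 (SE 0.78, adjusted p = 0.104 from limma). Without PyMT spleen 2 it had the same size and an adjusted p of 2.98e-04, beside 3.27% of all probes called. That array is not among those compared and entered only the shared estimate of the spread, and both naïve bone marrow arrays may be 1 animal. PyMT spleen against naïve spleen called 0.115% of all probes and had 1 ligand and 3 receptors at an unadjusted p under 0.05 (13.8% of members, 19.4% of all probes), with Tnfrsf1b at -0.70 (SE 0.22, adjusted p = 0.12) and Tnfrsf26 at -1.40 (SE 0.48, adjusted p = 0.138). The test of whether BrM against spleen differed between the models called 0.0287% of all probes and had 1 ligand and 3 receptors at an unadjusted p under 0.05 (13.8% of members, 11.3% of all probes). There Tnfrsf18 gave 1.69 (SE 0.49, adjusted p = 0.214).

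**Figure D5:**
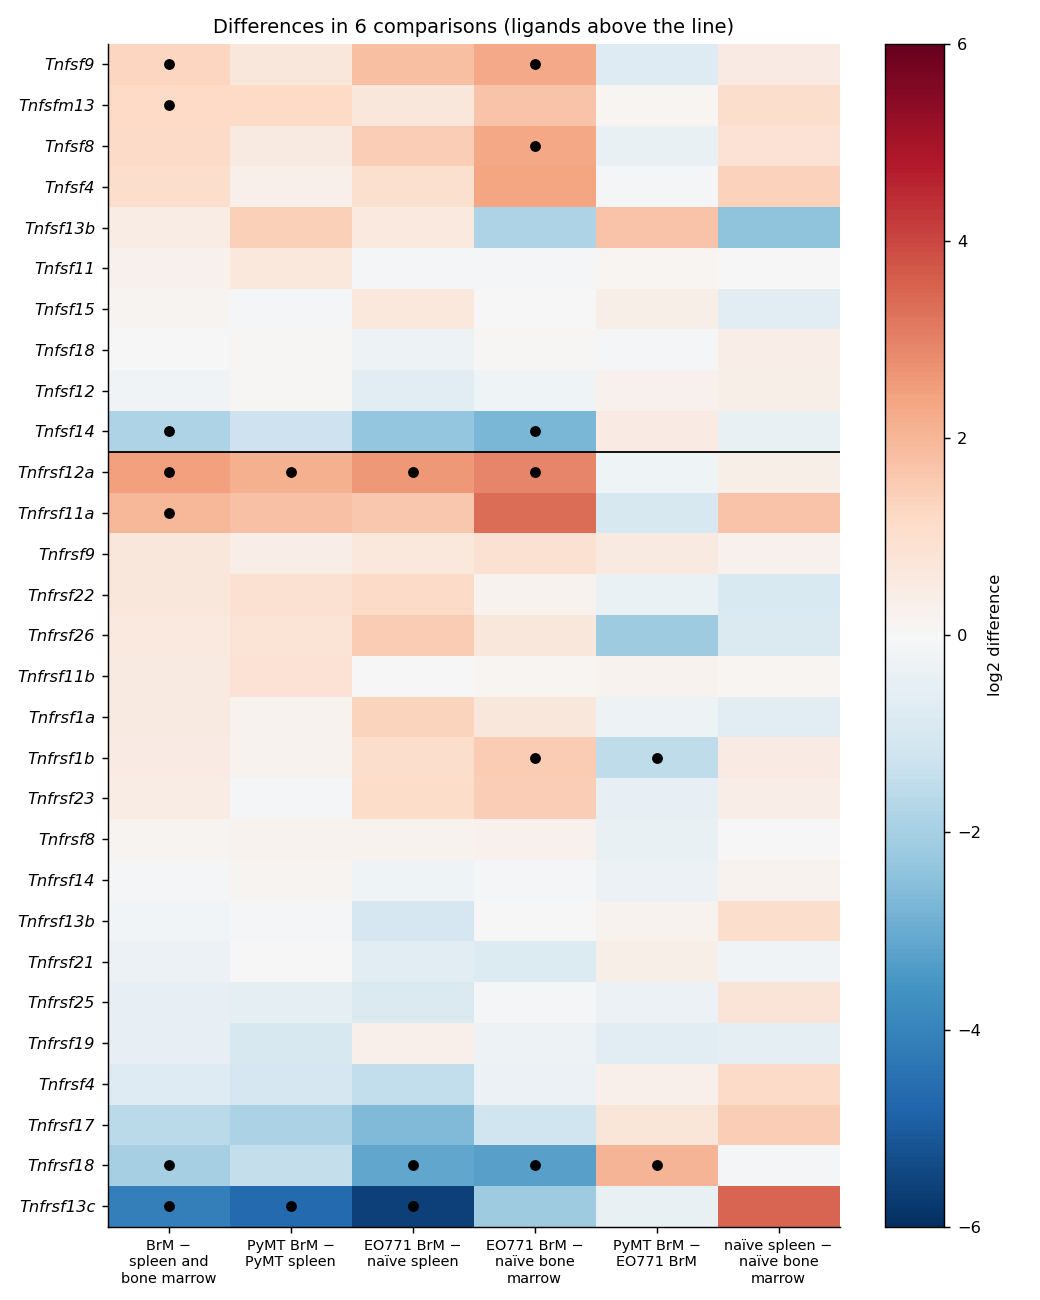
Log2 differences (color, -6 to 6) of the 29 members (rows) in 6 comparisons (columns), with a black dot where the adjusted p was under 0.01. Tnfrsf12a is red and Tnfrsf13c blue in each of the first 4 columns, which set BrM against spleen or bone marrow.

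Over all 6 conditions at once, limma's F test called 2 ligands (Tnfsf8 and Tnfsf9) and 5 receptors (Tnfrsf12a, Tnfrsf13c, Tnfrsf18, Tnfrsf1b and Tnfrsf26), beside 9.68% of all probes. Adjusted p ranged from 1.74e-04 for Tnfrsf12a to 0.00756 for Tnfsf8. Leaving out PyMT spleen 2, it called 5 ligands and 6 receptors, beside 17.8% of all probes. Gained were Tnfsf13b, Tnfsf14, Tnfsfm13, Tnfrsf11a and Tnfrsf17, and lost was Tnfrsf26 (adjusted p = 0.011). Removing 1 array at a time ended the F test call of Tnfsf8 for 11 of 14 arrays (adjusted p up to 0.0466), of Tnfrsf26 for 10 (0.0194), of Tnfsf9 for 7 (0.0297) and of Tnfrsf1b for both EO771 BrM arrays (0.023). With the naïve bone marrow arrays averaged, those of Tnfsf8, Tnfsf9 and Tnfrsf26 were lost too.

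The remaining members were not called in any comparison over the full set of arrays. With arrays left out, Tnfrsf1a was called against spleen alone without PyMT spleen 2 (1.09, adjusted p = 0.00931 from limma). Without naïve bone marrow 2, at 2.49, the difference of Tnfsf4 between EO771 BrM and naïve bone marrow was 3.52. It then rests on naïve bone marrow 1 alone, at 0.20, below the 5th percentile of signal, 2.31. Tnfrsf1a, the TNF receptor of most cell types, had condition means of 6.62 to 7.96, and Tnfrsf21, a death domain receptor, of 9.34 to 10.17. Tnfrsf22, a decoy receptor encoded beside Tnfrsf23 and Tnfrsf26 on chromosome 7, had means of 7.13 to 8.44 and Tnfrsf23 of 1.96 to 3.83. Tnfrsf19 (TROY) lay at 2.75 to 3.73, Tnfrsf25 (DR3) at 3.03 to 4.58 and its ligand Tnfsf15 at 2.58 to 3.67. Tnfsf4, the OX40 ligand, lay at 1.34 to 3.72, and Tnfrsf9 at 3.98 to 5.41. Of all 29 members, 13 (4 ligands, 9 receptors) lay above the median of all probes on every array. The condition means of 8 (4 ligands, 4 receptors) were below it throughout, so that a difference between conditions in these rests on signal near the background.

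Among related genes of the pathway under other names, 41 of 45 listed were measured, and in the pooled comparison 1 was higher and 4 were lower (12.2%, beside 6.92% of all probes). Of 7 ligands only Ltb (lymphotoxin beta, a lymphocyte ligand) was called, at -4.18 (SE 0.26, adjusted p = 4.40e-08 from limma). Of 8 receptors, Cd27, a costimulatory receptor of lymphocytes (-1.81, adjusted p = 0.00287) and Relt (-1.41, adjusted p = 0.00219) were lower. Of 14 adaptors and death pathway genes, Casp8, the initiator caspase of death receptors, was higher (1.56, SE 0.21, adjusted p = 1.00e-04) and Birc2, a ubiquitin ligase of TNF receptor complexes, lower (-0.87, adjusted p = 0.00937). Of 12 NF-kB genes 0 were called there, and Tnfaip3, the inhibitor A20, gave 1.40 (adjusted p = 0.0168). Tnf itself gave 1.43 (adjusted p = 0.0135) and Cd40 gave 1.70 (adjusted p = 0.0567), neither called.

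The genes whose condition means were most like those of Tnfrsf13c, over 6 conditions, were Ipo7 (r = 0.9941), Birc2 (r = 0.9937) and D930048N14Rik (r = 0.9926). Most like Tnfrsf12a were Col18a1 (r = 0.9953), Ecm1 (r = 0.994) and Mgarp (r = 0.9932). These are descriptions over 6 means that share the same arrays.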

How the data were processed

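Cells were sorted from BrM, spleen and bone marrow, and their poly-A RNA was hybridized to 14 Illumina MouseWG-6 v2 arrays. The deposited values are log2 signals whose sorted values differ between arrays by at most 0.00192, as quantile normalization leaves them. The submitters' notes name GenomeStudio 2011.1 and limma, and whether background was corrected is not given in the sources used here. Their span, -1.68 to 14.6, is what set the log base at 2 here. No detection p-values were used. Of 45281 probes, 34885 carried 1 symbol, 18 several and 10378 none; 50 probes named 29 members, 13 of them with several probes.

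Differences were fitted with limma 3.58.1 in R 4.3.3 (lmFit, eBayes, two-sided, Benjamini-Hochberg over all probes, adjusted p under 0.01). The pooled comparison used 2 groups, the others a fit of 6 conditions that shares 1 estimate of the spread. Members called in any comparison were named with values, the rest by their condition means. Members, lists, pairs and tests were chosen with earlier results of these data known. The fit was tested on simulated data. Positions and promoters come from the RefSeq tables of GRCm38.p6. A ligand and a receptor of the same naming are not reported here. Mouse codes tie 3 PyMT BrM arrays to 3 spleens of the same animals (1 also to PyMT bone marrow) and naïve spleen 1 to both naïve bone marrow arrays. Deviations of the 3 BrM and spleen pairs from their group means correlated at -0.0443 to -0.00479. The number of arrays limits the precision.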

Additional observations from a re-analysis of the deposited data

Results flagged for a closer look

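In groups of 4 arrays, the gap of the most distant array was divided by the range of its group and set against Dixon's 95% critical value. Only PyMT BrM had 4 arrays, which gave 29 tests, and chance alone passes about 5% of such groups. Tnfsf13b (BAFF) passed at 0.83, since PyMT BrM 1 gave 8.64 and the others 10.35 to 10.70. Tnfrsf23, a decoy receptor with dim signal, passed at 0.882, since PyMT BrM 2 gave 2.25 and the others 3.12 to 3.23.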

How the results depend on the processing

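The 20 called differences of members gave 477 values under the alternatives, of which 384 stayed past the threshold, 93 did not and 0 changed sign. The cause was not tested. In the pooled comparison, the reference genes as the centre left 1 ligand, spleen arrays as the sole comparison left 0 ligands and 2 receptors (4.00% of all probes called), the same without PyMT spleen 2 left 0 ligands and 4 receptors (5.04%, with Tnfrsf17 at -2.62 and Tnfrsf1a at 1.09 gained), and bone marrow alone left 3 and 3 (7.62%); these 3 tissue choices, and equal weights for the conditions with a variance trend, which kept all 7 pooled calls, were chosen after seeing the data. The replicate number of the title, which does not mark an animal, as a replicate block gave 2 ligands and 3 receptors in the pooled comparison, 1 and 3 in the F test, 1 ligand and 2 receptors for EO771 BrM against naïve bone marrow, 2 receptors against naïve spleen and 0 receptors between the BrM models, with 8 of 20 calls lost; arrays of the same number correlated at -0.0123 to 0.053. The fixed animal block gave 0 receptors for PyMT BrM against PyMT spleen. A mean-variance trend with robust estimation gave 4 ligands in the F test and 1 ligand (Tnfsf9) for EO771 BrM against naïve spleen, as did a filter on dim probes, which kept 22 members, for the latter. Averaging the naïve bone marrow arrays gave 0 ligands in the F test and against naïve bone marrow and 1 receptor between the BrM models. Averaging all probes of a gene gave 1 ligand (Tnfsfm13) for PyMT BrM against PyMT spleen and 1 receptor between the BrM models (Tnfrsf1b was lost), and only the arrays of both models gave 0. The two-tailed t-test of the methods lost Tnfrsf11a of 7 pooled calls.

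With each array left out in turn, ligands ranged from 2 to 4 and receptors from 3 to 4 in the pooled comparison, 0 to 5 and 3 to 6 in the F test, 0 to 1 and 2 to 3 for PyMT BrM against PyMT spleen, 0 to 1 and 0 to 3 for EO771 BrM against naïve spleen, 0 to 4 and 2 to 5 against naïve bone marrow, and 0 to 0 and 0 to 2 between the BrM models. For naïve spleen against naïve bone marrow, receptors ranged from 0 to 1. These ranges cannot be read as a trait of the family, since the share of all probes called moved too. Without PyMT spleen 2 it went from 9.68% to 17.8% in the F test and from 2.14% to 4.43% for EO771 BrM against naïve spleen. Such shares for the other arrays left out, and for the blocks, averages, trend and filter above, are not given here. Pooled calls of Tnfrsf12a, Tnfrsf13c, Tnfrsf18, Tnfsf14 and Tnfsf9 held without each of the 14 arrays. Centring on 10 reference genes moved the median of all pooled differences by -0.168 and the share of higher calls from 54.9% to 35.1%; Tnfrsf11a, Tnfsf9 (1.13) and Tnfsfm13 were no longer called and no called member changed sign. That share moved from 57.4% to 30.8% for PyMT BrM against PyMT spleen, 58.9% to 44.8% for EO771 BrM against naïve spleen and 36.7% to 50.6% between the BrM models. Levels at or below the median of all probes lie at the dim end of the array.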

Other observations

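Other marker lists moved as follows in the pooled comparison. Monocyte (3 of 5) and microglia (4 of 7) markers were called higher in part and none was called lower. The monocyte genes Chil3 (-1.44) and Plac8 (-1.38) and the microglia gene Siglech (-0.91) had negative differences without a call. Dendritic cell markers were called in neither direction (0 of 8). NK cell (1 of 7) and erythroid (3 of 4) markers were lower in part. Platelet markers split (1 higher and 1 lower of 6), as did brain markers (1 and 1 of 7), and epithelial (2 of 8) and endothelial or fibroblast (2 of 10) markers were higher in part.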
